A study of Mus musculus with 10 samples.

Results

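The genes described here are 10 regulators of the G1 phase of the cell cycle, picked by name as a family: the cyclins Ccnd2, Ccnd3, Ccne1 and Ccne2, the cyclin-dependent kinases Cdk4 and Cdk6, and the kinase inhibitors Cdkn2a, Cdkn2b, Cdkn1b and Cdkn1c. Each matched 1 row of the 55359 genes in the deposited table. Their RNA was measured by bulk RNA sequencing in 10 orthotopic pancreatic tumors of C57BL/6 mice, which carried cells of 1 line, KPC K8484, implanted at 10 weeks of age. KPC lines come from mice with a Pdx1-driven Cre that acts in the pancreas, and all tumors of both groups share the alleles of this line. The normoglycemic group drank regular water (CTRL, 5 tumors) and the hyperglycemic group drank water with 30% dextrose for 14 days (D30, 5 tumors). No chemotherapy group was analysed here, and the contrast asks how a high glucose supply alone went with expression in the tumor.

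D-type cyclins bind Cdk4 or Cdk6, and these kinases phosphorylate the retinoblastoma protein, which otherwise holds E2F transcription factors back. E-type cyclins bind Cdk2 and complete that step, so that E2F target genes are transcribed and the cell enters S phase. INK4 inhibitors such as the products of Cdkn2a and Cdkn2b bind Cdk4 and Cdk6, whereas the CIP/KIP inhibitors p27 (Cdkn1b) and p57 (Cdkn1c) act mainly on cyclin E and cyclin A complexes. Loss of the CDKN2A locus is among the most common lesions of human pancreatic cancer.

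Values are normalized counts, that is, a gene's reads divided by 1 size factor per tumor. Tumors are named by their column, N1, N2, N4, N5 and N6 for CTRL and T1, T2, T4, T5 and T7 for D30, and lists of 5 values follow that order. The 24560 genes with a mean of at least 1 were tested with limma on log2(normalized count + 1), and a gene was called at an adjusted p under 0.05. The reads behind the table numbered 29192261 to 42122304 per tumor. A pair of D30 tumors stood apart from the rest. For 13526 genes with a mean of at least 50, the log2 value in each tumor was set against the gene's mean over the other 9 tumors. In T4 the median of this deviation was -0.45 for genes with long merged exons (at least 6628.5 bases). For genes with short ones (at most 2588 bases) it was 0.63. The difference between these medians was -1.08 in T4 and ran from -0.28 to 0.52 in the other 9 tumors. T4 was also the only tumor with reads of 4 Y-linked genes, 841 in sum against 0 in each of the other 9. The study's methods state that male and female mice were used in equal numbers for orthotopic experiments. How these reads relate to the sex of each mouse was not tested. T5 had the fewest genes with a read, 20482 against 23446 to 25912 elsewhere. The results are therefore given with and without T4 and T5, a choice made after the data were seen.

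None of the 10 genes was called between D30 and CTRL tumors, and none had an unadjusted p under 0.05. Over all tested genes 678, or 2.76%, were called, and 17.3% had an unadjusted p under 0.05. The log2 fold change was below 0 for 9 of the 10 and above 0 for Cdkn2a, with a median of -0.22 against a median of -0.06 over all tested genes. The 2 groups overlapped for each of the 10, while they did not overlap for 6.19% of all tested genes. No fit with another scaling, pseudocount, filter or test, and none without a tumor, called any of them. In bulk tumor RNA, fewer cells of a type and less RNA per cell cannot be told apart.

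**Figure D1:**
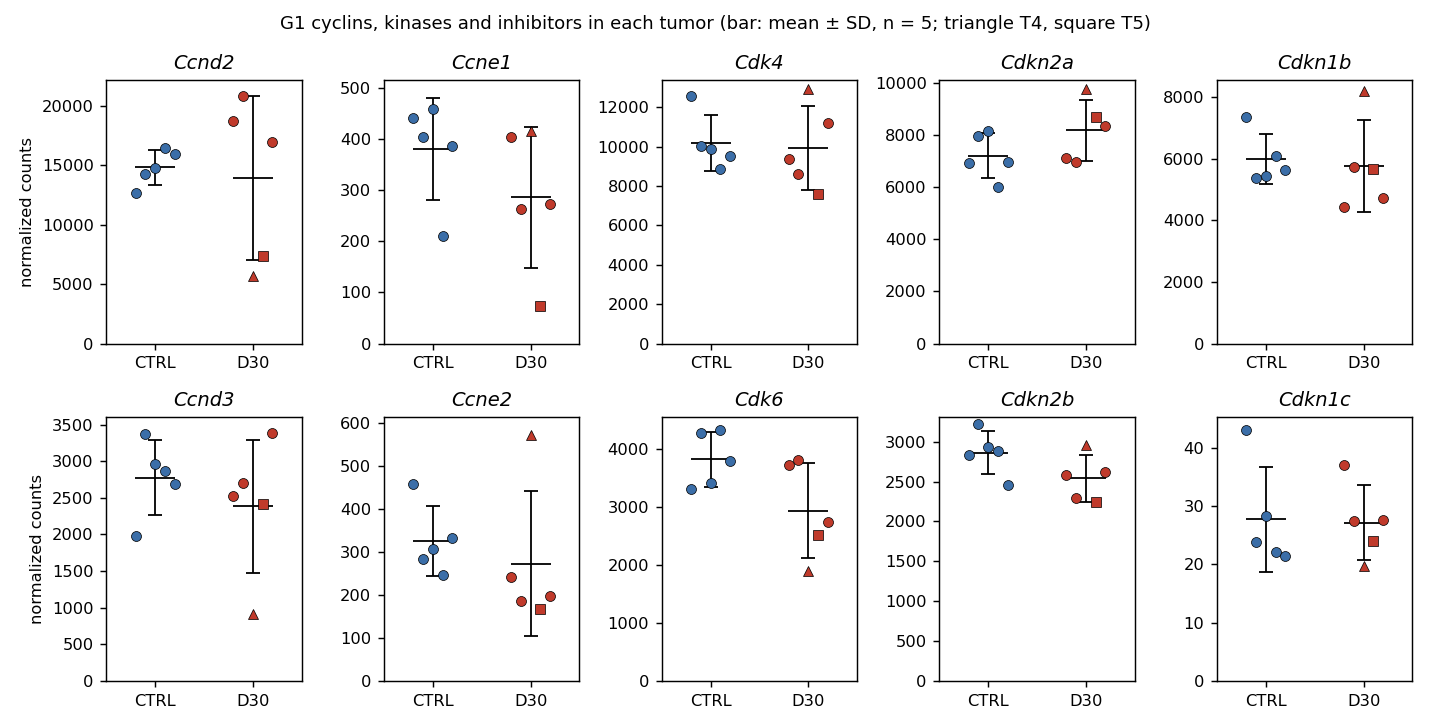
Normalized counts of the 10 G1 genes (vertical axes, starting at 0) in CTRL (blue) and D30 (red) tumors, 1 point per tumor, with the mean and SD of 5 tumors; the triangle is T4 and the square T5. T4 is the lowest tumor for Ccnd2, Ccnd3, Cdk6 and Cdkn1c and the highest for Ccne2, Cdk4, Cdkn2a and Cdkn1b, and T5 is the lowest for Ccne1, Ccne2, Cdk4 and Cdkn2b.

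Among the D-type cyclins, Ccnd2 (chromosome 6, 127125162 to 127152193, GRCm38) had 12668, 14217, 14771, 16425 and 15961 normalized counts in CTRL tumors and 18731, 20791, 5695, 7338 and 16976 in D30 tumors. The D30 tumors thus fell on both sides of the CTRL range, with T1, T2 and T7 above all CTRL tumors and T4 and T5 below all of them. The group means were 14808 ± 1489 and 13906 ± 6904 (SD, n = 5), and the log2 fold change was -0.27 (95% confidence interval -0.997 to 0.46, limma adjusted p = 0.737). Without T4 and T5 it was 0.35 (0.02 to 0.68, adjusted p = 0.174), so that the direction turned while the gene stayed uncalled.

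Ccnd3 (chromosome 17, 47505051 to 47599691), which encodes a D-type cyclin prominent in blood cells, had 1971, 3367, 2968, 2871 and 2690.1 normalized counts in CTRL tumors and 2523, 2701, 907, 2421 and 3379 in D30 tumors. Only T4 lay below the CTRL range, and T7 was slightly above it. The log2 fold change was -0.32 with all tumors (-0.99 to 0.35, adjusted p = 0.649) and 0.00 without T4 (-0.37 to 0.37, adjusted p = 0.999).

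Of the E-type cyclins, Ccne1 (chromosome 7, 38097984 to 38107534) had 442, 404, 459, 209.8 and 388 normalized counts in CTRL tumors and 404, 263, 416, 74.4 and 274 in D30 tumors. The low values of N5 and T5 each stood clear of the rest of their group. The log2 fold change, -0.57, was the lowest of the 10 and also had the widest interval (-1.50 to 0.35, adjusted p = 0.531). Without T5 it was -0.14 (-0.74 to 0.45).

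Ccne2 (chromosome 4, 11191351 to 11204779) had 458, 283, 306, 247 and 332 normalized counts in CTRL tumors and 243, 186, 571, 168 and 197 in D30 tumors. Of the 5 D30 tumors, 4 were below every CTRL tumor, and T4 was above every one. The log2 fold change was -0.38 (-1.10 to 0.33, adjusted p = 0.599) with all tumors, -0.69 (-1.18 to -0.21, adjusted p = 0.0868) without T4 and -0.62 (-1.09 to -0.14, adjusted p = 0.0978) without T4 and T5. Over its fits the adjusted p ran from 0.0868 to 0.767.

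The kinases phosphorylate the retinoblastoma protein once a D-type cyclin is bound. Cdk4 (chromosome 10, 127063534 to 127067920) had 12568, 10018, 9898, 8855 and 9538 normalized counts in CTRL tumors and 9364, 8602, 12923, 7577 and 11222 in D30 tumors. T2 and T5 were below all CTRL tumors and T4 above all of them, whereas T1 and T7 were within their range. The log2 fold change of Cdk4 was -0.05 (-0.46 to 0.36, adjusted p = 0.924). Cdk6 (chromosome 5, 3341485 to 3531008) had 3317, 4277, 3411, 4338 and 3804 normalized counts in CTRL tumors and 3729, 3817, 1891, 2518 and 2749 in D30 tumors. T4, T5 and T7 were below all CTRL tumors, whereas T1 and T2 were within their range. With a log2 fold change of -0.42 (-0.88 to 0.04), Cdk6 had the smallest p of the 10 (limma adjusted p = 0.333), and without T4 and T5 the fold change was -0.16 (-0.51 to 0.18).

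Of the INK4 genes, Cdkn2a (chromosome 4, 89274471 to 89294653) had 6949.6, 7961, 8159.8, 6017 and 6975 normalized counts in CTRL tumors and 7142, 6961, 9788, 8709 and 8338 in D30 tumors. T4, T5 and T7 were above all CTRL tumors and T1 and T2 within their range. The log2 fold change was 0.18 (-0.19 to 0.55, adjusted p = 0.638), and scaling by library size alone turned it to -0.04. Cdkn2b (chromosome 4, 89306299 to 89311039), its neighbour, encodes p15INK4b. It had 2827, 3219.7, 2934, 2878 and 2459.9 normalized counts in CTRL tumors and 2579.7, 2291, 2959, 2241 and 2623 in D30 tumors, with T2 and T5 below the CTRL range. The log2 fold change was -0.18 (-0.52 to 0.17, adjusted p = 0.619).

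The single Cdkn2a row sums transcripts from a pair of start sites. The upstream start gives p19ARF, which stabilizes p53 through Mdm2, and the downstream start gives p16INK4a, so that the row does not tell these products apart. The 250 bases before each annotated start of the locus, from RefSeq (GRCm38.p6, minus strand, 5′ to 3′), are shown because the ratio of Cdkn2a to Cdkn2b, described further on, was the one with the smallest p of the 5 ratios tested. The windows lie at chr4:89294620-89294869, chr4:89282193-89282442 and chr4:89311033-89311282, and capitals mark a word of the E2F binding motif.
Cdkn2a upstream start: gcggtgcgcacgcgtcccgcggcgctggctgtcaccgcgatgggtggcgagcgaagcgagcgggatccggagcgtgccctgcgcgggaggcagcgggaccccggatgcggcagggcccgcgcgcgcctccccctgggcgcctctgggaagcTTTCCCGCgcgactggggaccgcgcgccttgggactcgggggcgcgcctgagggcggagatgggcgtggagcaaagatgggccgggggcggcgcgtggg
Cdkn2a downstream start: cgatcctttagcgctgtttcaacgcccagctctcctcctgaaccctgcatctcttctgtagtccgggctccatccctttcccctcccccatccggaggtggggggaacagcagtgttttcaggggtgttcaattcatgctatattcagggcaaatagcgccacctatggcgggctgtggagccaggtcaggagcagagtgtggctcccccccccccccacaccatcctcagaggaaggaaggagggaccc
Cdkn2b start: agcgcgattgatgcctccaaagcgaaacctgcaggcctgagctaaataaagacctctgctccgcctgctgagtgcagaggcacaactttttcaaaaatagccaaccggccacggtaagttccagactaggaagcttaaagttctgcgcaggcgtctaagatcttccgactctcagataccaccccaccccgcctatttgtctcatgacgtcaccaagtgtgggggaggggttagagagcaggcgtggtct
The words TTTCCCGC, TTTCGCGC, TTTGCCGC and TTTGGCGC were searched on both strands in windows from 250 bases before to 50 bases after each start. They were found in 1 of 9 windows of the 7 genes that had one, the upstream window of Cdkn2a, and in 2.26% of all 32851 windows. A match is a description of these letters only. Ccnd2, Ccne2 and Cdkn1c had no window in the reference used.

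Both CIP/KIP genes had similar means in the 2 groups. Cdkn1b (chromosome 6, 134920401 to 134925513) had 7346, 5372, 5437, 6089.8 and 5649 normalized counts in CTRL tumors and 4427, 5732, 8209.6, 5673 and 4723 in D30 tumors. T4 was above and T1 and T7 were below the CTRL range, and the log2 fold change was -0.08 (-0.50 to 0.34, adjusted p = 0.876). Cdkn1c (chromosome 7, 143458339 to 143461050), an imprinted gene, had 43.1, 23.9, 28.3, 22.1 and 21.4 normalized counts in CTRL tumors and 37.0, 27.5, 19.7, 24.0 and 27.7 in D30 tumors. These values rest on 17 to 41 reads per tumor, and the log2 fold change of -0.01 had an interval from -0.79 to 0.77 (adjusted p = 0.994), which leaves changes of either sign within it.

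**Figure D2:**
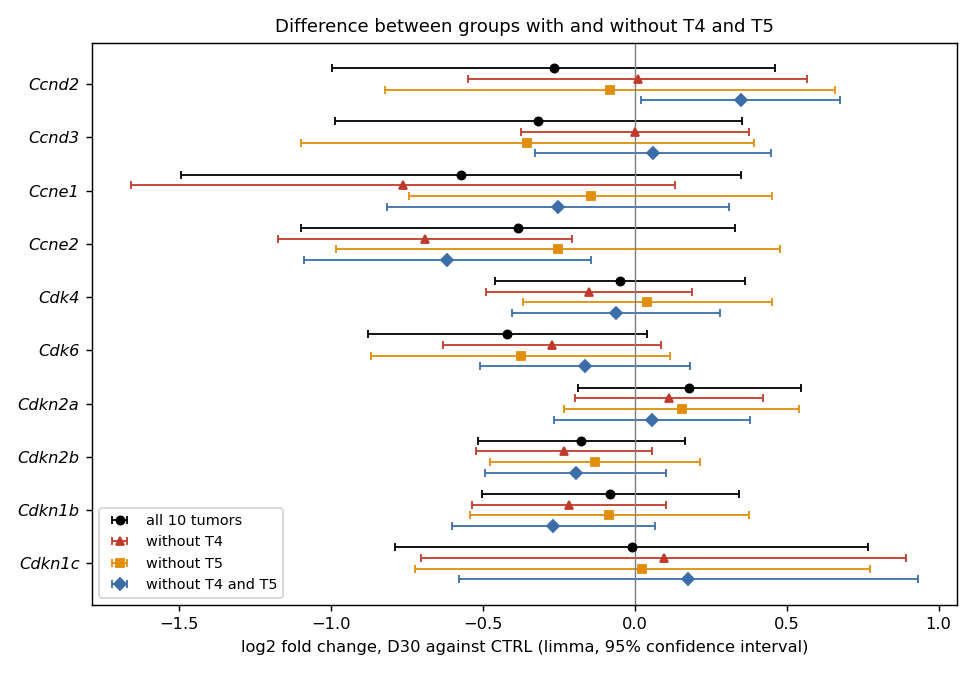
Log2 fold change of D30 against CTRL tumors (horizontal axis, limma) with its 95% confidence interval for each of the 10 genes, with all 10 tumors (black), without T4 (red), without T5 (orange) and without both (blue). With all tumors each interval spans 0; without T4 and T5 those of Ccnd2 (0.02 to 0.68) and Ccne2 (-1.09 to -0.14) do not, on opposite sides.

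Without T4 and T5 the remaining 3 D30 tumors lay apart from the CTRL tumors for 2 of the 10 genes, Ccnd2 (16976 to 20791 against at most 16425) and Ccne2 (186 to 243 against at least 247). The groups did not overlap in this way for 19.0% of all tested genes, and 9.97% of the genes tested without T4 and T5 were called, so that 2 of 10 was close to the background. The median log2 fold change of the 10 genes was then -0.11, with 4 above 0.

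The spread within D30 was also compared with and without T4 and T5. The SD on the log2 scale was wider in D30 than in CTRL tumors for 9 of the 10 genes, with a median SD of 0.384 against 0.187, and so it was for 84.4% of all tested genes. With T4 and T5 left out it was wider for 3 of the 10 and for 41.5% of all genes. That SD rests on 3 D30 tumors against 5 CTRL tumors. T4 and T5 were left out because they stood apart, so that some fall in the spread was built in. T4 held the lowest or highest value of all tumors for 8 of the 10. The 3 genes with the longest merged exons, Cdk6 (13.99 kb), Ccnd2 (9.41 kb) and Ccnd3 (8.78 kb), were those furthest below the CTRL mean in T4, by log2 differences of -1.01, -1.37 and -1.59. Of the other 7 genes, 6 were above the CTRL mean in T4 and Cdkn1c was below it. The part of transcript length in these values was not tested. In T5 the lowest differences were those of Ccne1 (-2.29), Ccnd2 (-1.01) and Ccne2 (-0.91).

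**Figure D3:**
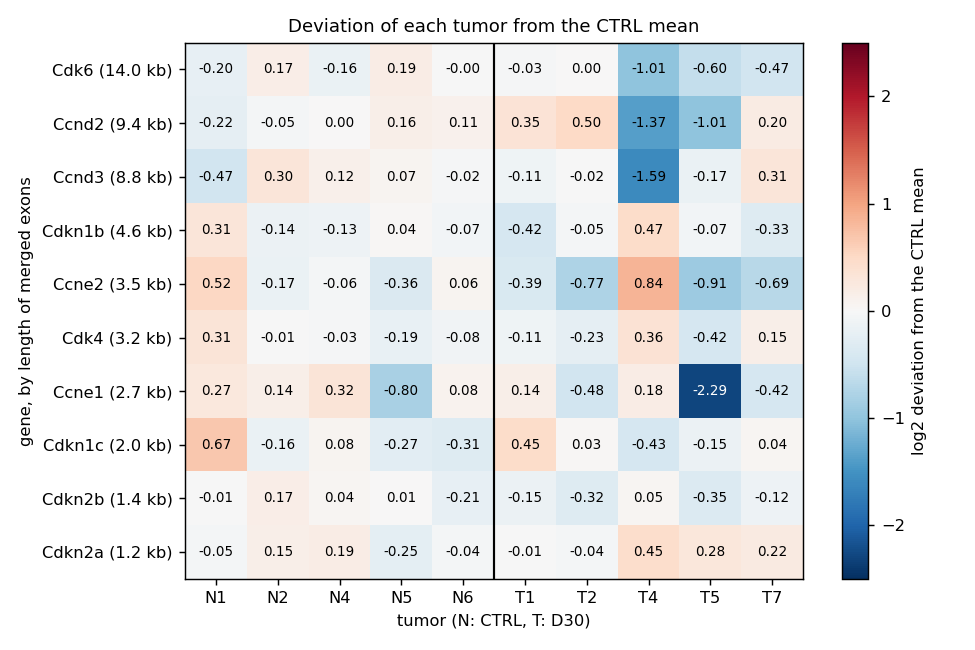
Log2 deviation of every tumor (columns) from the CTRL mean for each gene (rows, from the longest to the shortest merged exons in kb); red is above and blue below the mean, and the vertical line separates CTRL from D30. T4 shows its 3 strongest negative values in the 3 longest genes, and T5 its strongest in Ccne1 (-2.29).

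Levels per kb of merged exon allow the genes to be set side by side. The order was the same in both groups. Cdkn2a was the highest, with a mean level of 6154 normalized counts per kb in CTRL and 6986 in D30 tumors, followed by Cdk4 (3132 and 3059) and Cdkn2b (2060 and 1826). Ccnd2 (1574 and 1478) and Cdkn1b (1313 and 1264) came next and did not differ beyond their spread, since Ccnd2 had the higher level in 4 of 5 CTRL and 3 of 5 D30 tumors. Cdkn2b was above Ccnd2 in 5 of 5 CTRL but 3 of 5 D30 tumors. Ccnd3 (316 and 272) and Cdk6 (274 and 210.2) formed a pair at a lower level, with Ccnd3 higher in 4 of 5 tumors of each group. The E-type cyclins were lower still, Ccne1 at 143 and 108 and Ccne2 at 93.0 and 78.1. Their order was the same in 5 of 5 CTRL tumors but in 3 of 5 D30 tumors. Cdkn1c was lowest, at 13.6 and 13.3 normalized counts per kb. The kinase Cdk4 thus stood above Cdk6 and the D-type cyclin Ccnd2 above Ccnd3 in every tumor.

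A ratio of relatives within a tumor does not move with the scaling of that tumor, and 5 such ratios were tested by exact permutation of the group labels (two-sided, smallest possible p 0.00794). The ratio of Cdkn2a to Cdkn2b was 2.46, 2.47, 2.78, 2.09 and 2.83 in CTRL tumors and 2.77, 3.04, 3.31, 3.88 and 3.18 in D30 tumors. All D30 tumors but T1 were above every CTRL tumor, and T1 was just below the highest of them. The mean log2 ratio was higher in D30 tumors by 0.36 (exact permutation p = 0.0238), but the value did not pass adjustment over the 5 ratios (adjusted p = 0.119). The adjusted p was 0.0397 without T1 and ran from 0.0397 to 0.246 over all its alternatives.

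Of the other ratios, Cdk4 to Cdk6 had a median of 2.51 in CTRL and 3.01 in D30 tumors, with T4 at 6.83, and its log2 difference was 0.37 (exact permutation p = 0.302, adjusted p = 0.754). For Ccnd2 to Ccnd3 the log2 difference was 0.05 (p = 0.873, exact permutation), for Ccne1 to Ccne2 -0.19 (p = 0.667) and for Cdkn1b to Cdkn1c -0.07 (p = 0.817). These 3 differences were smaller than the spread between tumors of either group. For Ccne1 to Ccne2, T4 (0.729) and T5 (0.445) were the lowest of all tumors while T1 (1.66) was the highest, and the difference turned to 0.36 without T4 and T5.

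**Figure D4:**
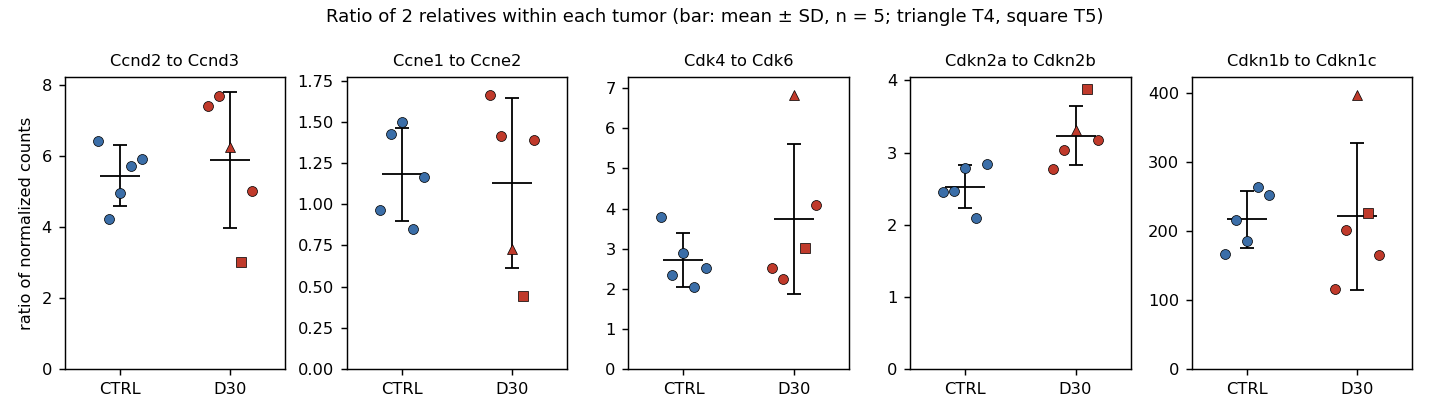
Ratio of normalized counts of 2 related genes within each tumor (vertical axes, starting at 0) for CTRL (blue) and D30 (red), with the mean and SD of 5 tumors; the triangle is T4 and the square T5. The Cdkn2a to Cdkn2b ratio runs from 2.09 to 2.83 in CTRL and from 2.77 to 3.88 in D30 tumors; T4 (6.83) sets the range of Cdk4 to Cdk6 and T5 (0.445) that of Ccne1 to Ccne2.

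The other genes of the pathway were taken from lists. Of 32 tested genes of the other G1 machinery (further cyclins, kinases, inhibitors, pocket proteins, E2F factors and their degradation), 1 was called higher, 0 lower, and the median log2 fold change was -0.06, the same as over all tested genes. A count of 1 in 32 is near the 2.76% called over all genes. The gene was Rb1, which encodes the retinoblastoma protein, the substrate of Cdk4 and Cdk6. Rb1 had 708, 540.0, 777, 673 and 702 normalized counts in CTRL tumors and 1723, 1337, 966, 1348 and 1068 in D30 tumors, so that every D30 tumor was above every CTRL tumor. Its log2 fold change was 0.90 (SE 0.20, limma adjusted p = 0.0301), with means of 679.8 ± 86.9 and 1289 ± 295 (SD, n = 5). The call held in 3 of 10 fits that left out 1 tumor, those without T4, T5 or T7, and was lost without N1, N2, N4, N5, N6, T1 or T2 (adjusted p 0.0513 to 0.110) and with library-size scaling (0.119). Over its alternatives the adjusted p ran from 0.000903 to 0.119, and the log2 fold change from 0.68 to 0.999.

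Further genes of that list were named after their values were seen. Ccnd1, the remaining D-type cyclin, had a log2 fold change of -0.13 (adjusted p = 0.787) and Cdk2, the partner of cyclin E, one of -0.08 (adjusted p = 0.872). The groups did not overlap for 3 of the 32 genes, against 6.19% of all tested genes. Beside Rb1 these were Rbl2, a pocket protein related to Rb1 (log2 fold change -0.37, adjusted p = 0.266), and the transcription factor E2f3 (-0.68, adjusted p = 0.122), neither of which was called. Cdkn1a, the CIP/KIP inhibitor p21, had 7331 normalized counts in T5 and 509 to 1177 in the other 9 tumors. T5 was also the lowest tumor for Ccne1 and for Skp2, which targets p27 for degradation (129 against 485 to 875). Cdc25a, a phosphatase that activates Cdk2, had 2379 to 2518 normalized counts in T1, T2 and T7 and 1321 to 1723 in CTRL tumors, but 1056 in T4 and 1337 in T5. It was called only with T4 and T5 left out (log2 fold change 0.67, adjusted p = 0.00951), a fit that called 9.97% of all tested genes.

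Of 24 E2F target genes, 0 were called in either direction with limma, edgeR or DESeq2, and 0 had an unadjusted p under 0.05. The median log2 fold change was -0.28 with all tumors, with 19 of 24 below 0, and 0.12 without T4 and T5, with 15 of 24 above 0. The smallest p belonged to Dck, a nucleoside salvage kinase, with a log2 fold change of -0.49 (adjusted p = 0.293). It was called lower without T4 (-0.67, adjusted p = 0.0300) and without T4 and T5 (-0.75, adjusted p = 0.0112). The fit without T4 called 1573 of 24471 tested genes, and the fit without both called 9.97% of all tested genes. Of 16 genes of G2 and mitosis, 0 were called by limma, edgeR or DESeq2 and 1 had an unadjusted p under 0.05, Bub1, a spindle checkpoint kinase (log2 fold change -0.84, adjusted p = 0.145). Without T4 and T5 the median of these 16 genes was -0.02, and 1 was called higher, the mitotic kinase Plk1 (1.27, adjusted p = 0.00106), named after its values were seen. A count of 1 in 16 is not above the 9.97% of all tested genes called in that fit. Plk1 had 2362 to 3063 normalized counts in T1, T2 and T7, 922 to 1428 in CTRL tumors, 362 in T4 and 801 in T5, and a log2 fold change of 0.35 (adjusted p = 0.771) with all tumors. Mki67, the proliferation marker, had 2952, 3979, 5075, 3002 and 4395 normalized counts in CTRL tumors and 6039.5, 3567, 729, 1812 and 3860.4 in D30 tumors. T1 was the highest and T4 and T5 the lowest of all 10, and the log2 fold change was -0.57 with all tumors and 0.20 without T4 and T5. Per tumor, the mean log2 deviation of the E2F targets, here from each gene's mean over all 10 tumors, was lowest in T5 (-0.66) and T4 (-0.51). The same held for the mitotic genes (-0.78 and -0.54). These means do not hold for each gene. The E2F target Pcna, named after its values were seen, had 13082 normalized counts in T4 and at most 8547 in any other tumor. The part of transcript length in the T4 means was not tested.

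The genes whose deviations from their group means over the 10 tumors were most like those of Cdk6 were Fam120c (Pearson r = 0.98, Spearman rho = 0.99), Stxbp4 (0.98 and 0.94) and Zfp618 (0.97 and 0.96), out of 13549 genes with a mean of at least 50. All points come from the same 10 libraries, T4 among them, and the values are descriptions.

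Markers of cell types were summed per tumor as a description, and these sums were not tested. Summed counts of 8 epithelial tumor cell markers were 224679 to 355284 in CTRL and 377561 to 500428 in D30 tumors, with 0 markers called. Those of 8 endothelial markers were 12390 to 20385 in CTRL and 6017 to 11140 in D30 tumors, with Cdh5 called lower, and those of 8 macrophage markers were 18697 to 31556 and 9724 to 27465, with Csf1r called lower. For 10 T and NK cell markers the sums were 392.2 to 723 in CTRL and 219 to 355 in D30 tumors, and for 10 fibroblast and pericyte markers 81346 to 143893 and 34630 to 108736. Neutrophil markers summed to 637 to 2950 and 781 to 13833, with T5 the highest, and B cell markers to 196 to 437 and 150 to 352. Pancreatic acinar markers varied from 270 to 55169 in CTRL and from 144 to 5032 in D30 tumors. Islet markers summed to 17.7 to 1496 in CTRL and 0 to 83.6 in D30 tumors, with 4 of 7 called lower. Over all 24560 tested genes 2.76% were called, 334 of them lower. No marker gene was at 0 in all tumors. The part of tumor makeup in the levels of the 10 genes was not tested.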

How the data were processed

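RNA was extracted from whole tumors, and strand-specific libraries were sequenced in pairs of 150 bases. The authors trimmed the reads (Trim Galore), aligned them with STAR (2.7.0e per the submitters' processing notes) and named DESeq2. These notes give GRCm39 as the genome and the study's methods hg38, while the table lists mouse Ensembl identifiers. The gene annotation and whether counting used the strand are not given in the sources used here. Exons of Ccnd2, Ccnd3, Ccne2, Cdk4, Cdk6 and Cdkn1c overlap genes on the opposite strand.

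The authors deposited a normalized signal per gene and tumor, gene counts divided by a size factor. All values (100% in each column, within 0.1 reads) came out as whole reads. N columns were taken as CTRL by their letter and T columns as D30 as the only other group. Their numbers do not match the labels' replicate numbers, so tumors are named by column. The labels call the tumors PDX but give KPC K8484 cells as their source. The design text calls the 5 tumors of a group independent biological replicates.

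Identifiers were matched without versions to GENCODE M21 (GRCm38, 94.1% named), the source of names, positions and merged exon lengths. limma 3.58.1 (R 4.3.3) with a mean-variance trend was run on log2(value + 1) for genes with a mean of at least 1, adjusted by Benjamini-Hochberg over 24560 genes. Fold changes on this scale understate those of low genes. edgeR 4.0.16 and DESeq2 1.42.0 on the recovered reads, other scalings, pseudocounts and filters, and fits without each tumor were alternatives. The fits were tried on simulated counts with the same dispersion for every gene and no tumor set apart. That trial therefore does not show how they behave with tumors such as T4 and T5. It set no limit on false calls for DESeq2. Ratios were compared by exact permutation in Python 3.11.15, and Spearman correlations used scipy 1.17.1. The 10 genes, the other gene lists and the tests were chosen with earlier results of these data known. From each list, genes called are named, otherwise the gene with the smallest p, plus Mki67, and the 3 genes most like the member with the smallest p.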

Additional observations from a re-analysis of the deposited data

Results flagged for a closer look

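A pair of the 10 genes had a tumor far from the other 4 of its group, by Dixon's ratio of the gap to the range. Ccnd3 had 907 normalized counts in the D30 tumor T4, with the gap to the nearest tumor making up 0.747 of the group's range. Ccne1 had 209.8 in the CTRL tumor N5 (0.785) and 74.4 in the D30 tumor T5 (0.733). Chance gives such a value in about 1 of 20 groups, and 28 groups were looked at, which is more than those of the 10 genes alone. These groups share the same tumors and are not independent.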

How the results depend on the processing

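No paired analysis was possible, since the study's methods state that mice were randomized to treatment and the labels name no pairs of tumors. The column numbers also do not match the replicate numbers of the labels, so the replicate block was not run. The count of members called was 0 in each of the 21 fits. The number of genes called over all tested genes, 678, was 1867 with DESeq2 and 2418 without T4 and T5, the latter added after seeing the data. It ranged from 279 to 1573 when 1 tumor was left out, with 279 without N2, 340.0 without N5, 332 without N6, 433 without T7 and 1573 without T4, and from 600.0 to 867 with the other scalings, pseudocounts, filters and edgeR. Scaling by library size moved the median of all genes from -0.06 to -0.27, and that of the 10 genes to -0.45, with 10 of 10 below 0 and Cdkn2a at -0.0440. It also moved the median of the other G1 machinery to -0.28. With upper-quartile scaling Cdkn1c was 0.0331. With 1 tumor left out, log2 fold changes that turned sign ranged from -0.46 to 0.00919 for Ccnd2 (without T4), -0.47 to 0.00037 for Ccnd3 (T4), -0.15 to 0.0413 for Cdk4 (0.0287 without N1, 0.0413 without T5), -0.22 to 0.00515 for Cdkn1b (without T1) and -0.13 to 0.16 for Cdkn1c (0.16, 0.00877, 0.0945 and 0.0252 without N1, N4, T4 or T5). Without T4 and T5, Ccnd2 was 0.35, Ccnd3 0.0585, Cdkn1c 0.18, Mki67 0.20 and the difference in the log2 ratio of Ccne1 to Ccne2 0.36. Leaving out 1 tumor gave differences in log2 ratio of -0.0648 to 0.27 for Ccnd2 to Ccnd3, -0.37 to 0.11 for Ccne1 to Ccne2, -0.31 to 0.13 for Cdkn1b to Cdkn1c, 0.12 to 0.52 for Cdk4 to Cdk6 and 0.29 to 0.41 for Cdkn2a to Cdkn2b, the last passing adjustment without T1 (0.41). The cause of these moves was not tested. Of the 10 genes, Cdkn1c had the fewest reads, 17 to 41 per tumor.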
